A study of Mus musculus with 18 samples.

Results

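Untreated enteric glial cells (EGCs) and untreated bone-marrow-derived macrophages (BMDMs) were compared at baseline, as the control group of one deposited table against the RPMI group of the other, joined by gene symbol. These were 7 of the 18 libraries of the series. The 3 EGC control libraries came from primary glia grown out of the small bowel muscularis externa of Bl6 (C57BL/6) mice, expanded as neurospheres with FGF and EGF and then differentiated for 7 days in neurobasal medium with EGF. The 4 BMDM libraries came from bone marrow of Il1R1-KO mice, which lack the type I interleukin-1 receptor in every cell, matured for 6 days in RPMI with serum and recombinant CSF-1 and then given RPMI for 3 h. The labels describe these cells as treated with RPMI medium, and the study's figure legends call them untreated. Mice of both kinds were 8 to 16 weeks old. The EGC cultures are a mixed primary preparation. The study reports that most of their cells were glia, with few neurons and fibroblasts, from immunostaining and from cell type markers in RNA-seq. The other groups of the series were EGCs given IL-1b at 10 ng/ml for 24 h (3 libraries) and BMDMs given conditioned medium for 3 h from vehicle-treated EGCs (CM-veh, 4 libraries) or from IL-1b-treated EGCs (CM-IL1, 4 libraries). They appear below only as libraries outside the baseline contrast.

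Enteric glia are neural crest derivatives that surround enteric neurons, depend on the transcription factor SOX10 and carry the calcium-binding protein S100B. Macrophages of the gut muscle layer and those grown from marrow depend on the receptor CSF1R, which binds CSF-1 and IL-34, and on the transcription factor PU.1, and they fill their lysosomes with cathepsins and lysozyme. In the muscularis externa the cell types lie side by side and can exchange CSF-1, chemokines, complement and cytokines. The receptor and ligand transcripts of each culture at rest are therefore described below, without a measure of signals passing between them.

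Every level below is the authors' least-squares mean of a group. The values were read as CPM, read counts scaled to the total of the library, a unit that no source used here states. The libraries were made from the 3′ ends of transcripts, with a single fragment per transcript, so the values are per transcript and not per length. Both tables were scaled separately and hold group means only, so no level has a replicate error, no difference was tested, and the depth of each library is unknown. Tissue, genotype, medium, serum, time in culture and table all differ between the cultures and cannot be told apart from cell type, nor can fewer cells of a type be told apart from less RNA per cell. Xist, the transcript of the inactive X chromosome, had a mean of 299 in EGCs and no entry for BMDMs, while the Y-linked Ddx3y and Uty had means of 49.8 and 6.71 in BMDMs and no entry for EGCs. These sex-linked genes were chosen after their values were seen, and the sex of the mice also cannot be told apart from the culture. Widely expressed transcripts were also abundant in both cultures, such as Malat1 (4267 in EGCs, 4613 in BMDMs), Tpt1 (3187 and 2988) and Actb (5702 and 17884). The transcript AY036118 took 23.3% of all CPM in EGCs and 23.5% in BMDMs.

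The EGC table listed 13452 genes and that of BMDMs 11200, with 10320 in both. A gene listed for both cultures was called far higher in one of them at a difference of at least 8-fold after adding 1 CPM to each mean, a log2 difference of at least 3. Of the 10320 genes, 303 (2.94%) were far higher in EGCs and 137 (1.33%) far higher in BMDMs. A further 3132 of the 14332 genes in either table (21.9%) were listed for EGCs only, and 880 (6.14%) for BMDMs only. A missing entry was not read as 0, because no source used here gives the filter behind it. The median log2 difference, EGC minus BMDM, over all genes in both tables was 0.25, so a gene at 0 lay slightly on the macrophage side of the middle. Most genes in both tables were thus higher in EGCs, and counts below of list members merely higher in a culture do not allow for this. At 2-fold, 2119 of the 10320 genes were higher in EGCs and 1051 in BMDMs. Just inside and just outside the limit, log2 differences were 3.00007 and 2.998 on the EGC side and -3.01 and -2.99 on the BMDM side. Across the 10320 genes, which are not independent replicates, the rank correlation of the means was 0.734 between the cultures, against 0.959 between control and IL-1b-treated EGCs and 0.970 between RPMI and CM-veh BMDMs.

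**Figure D1:**
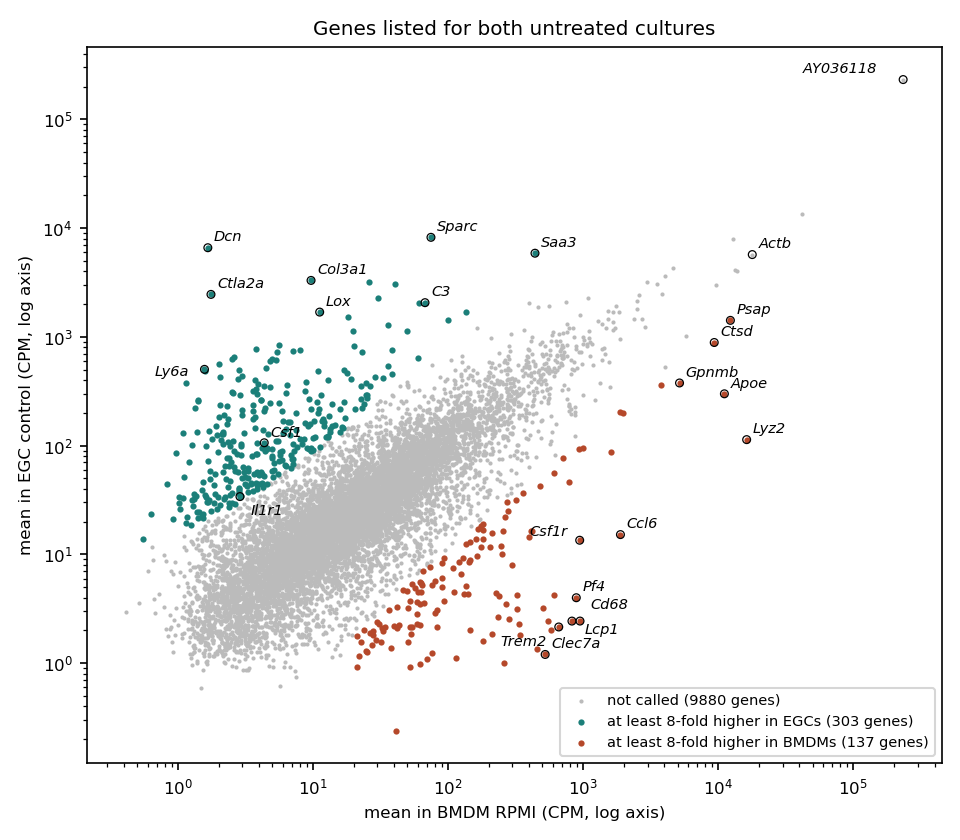
Authors' means of the 10320 genes listed for both untreated cultures, BMDM RPMI on the horizontal and EGC control on the vertical axis (both CPM, log axes), one point per gene. The 303 genes far higher in EGCs lie at the upper left, from Dcn at 6593 against 1.67, and the 137 far higher in BMDMs at the lower right, down to Clec7a at 1.2 against 524.

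The targeted gene of the BMDM donors was examined first. Il1r1 (chr1:40225080-40317257, GRCm38), the signalling receptor for IL-1, had a mean of 34 in control EGCs and 2.88 in RPMI BMDMs, a log2 difference of 3.17. In the treated groups its mean was 56.9 with IL-1b and 8.69 and 9.57 with CM-veh and CM-IL1. The low macrophage level sat beside the knockout label, but 3′ tags outside the deleted part of the gene do not check a knockout, and the cell type differed too. Il1rap, the partner chain of IL1R1, is not targeted and was also far higher in EGCs, at 23.3 against 1.53.

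The glial label rested on genes that only the EGC table listed. Sox10 (chr15:79154908-79165240), the master regulator of glial identity, had a mean of 238 in control and 214 in IL-1b-treated EGCs, and S100b (chr10:76253853-76261159) had means of 276 and 237. Neither had an entry for BMDMs. Of 25 genes of the enteric glia and neural crest list, 18 were listed for EGCs only, 5 for both and 2 for neither. The highest of the 18 were Gap43, a growth-cone protein, at 868, Cryab, a small heat shock protein, at 725, and Ngfr, the low-affinity neurotrophin receptor of neural crest cells, at 649. The adhesion molecule Ncam1 reached 371, the matrix protein Matn2 274 and the intermediate filament Gfap only 47.6. The 5 members in both tables were all higher in EGCs, with a median log2 difference of 2.08, and only L1cam, a neural adhesion molecule, passed the 8-fold limit (93.8 against 4.59). Nes, an intermediate filament of progenitors, stood at 283 against 38.8.

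Macrophage markers gave the mirror image. Lyz2 (chr10:117277331-117282321), the macrophage lysozyme, was the highest protein-coding gene of BMDMs after Actb, with a mean of 16250.4 against 113 in EGCs, and Csf1r (chr18:61100598-61132149) had 943 against 13.5. Of 30 macrophage genes, 19 were listed for BMDMs only and 11 for both, and 10 of those 11 were far higher in BMDMs, with a median log2 difference of -6.21. The scavenger glycoprotein Cd68 showed the largest difference of all genes on this side, 949 against 2.44, followed by the actin bundler Lcp1 at 827 against 2.44. Trem2, a lipid-sensing receptor, stood at 660.3 against 2.15. Lgals3, a galectin, missed the limit at 4018 against 529.7. Among the genes with no EGC entry were the protease Ctss (3131), the lysosomal membrane protein Laptm5 (1401), the complement chain C1qb (1369), the NADPH oxidase subunit Cybb (1321), the adaptors Tyrobp (1094) and Fcer1g (1009), the pore-forming Mpeg1 (739.5), and the surface markers Adgre1 (435), Itgam (337) and Ptprc (321).

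The 11 macrophage genes listed for EGCs stood there at 0.257% (Cd68) to 13.2% (Lgals3) of their BMDM means. Lyz2 reached 0.698% and Csf1r 1.43%, so these genes did not share a single ratio. The pan-leukocyte marker Ptprc, the macrophage receptor Adgre1 and the transcription factor Spi1 had no EGC entry. Whether macrophages in the EGC cultures contributed to the remaining Csf1r and Lyz2 signal was not tested.

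The most abundant matrix genes stood above every glial marker of the list and, with the acute phase gene Saa3, led the far-higher genes of EGCs. Sparc, a collagen-binding glycoprotein, averaged 8215 in EGCs and 74.7 in BMDMs and had the third highest mean of all EGC genes, after AY036118 and the mitochondrial ribosomal RNA mt-Rnr2. Dcn, a small collagen-binding proteoglycan, averaged 6593 against 1.67, the largest difference of the 10320 genes (log2 difference 11.27). All 16 genes of the fibroblast list were listed for EGCs, 9 of them for EGCs only, and all 7 in both tables were far higher, with a median log2 difference of 6.21. Col3a1 averaged 3299.8 against 9.68, Col1a1 3185 against 26.1, Col1a2 3064 against 40.3, and fibronectin (Fn1) 2281 against 30.1. Lum, a keratan sulfate proteoglycan, averaged 801, and Pdgfra, a receptor of mesenchymal cells, 112, with no BMDM entry. Summed over each list, the EGC means came to 20888 CPM for the 16 fibroblast genes and to 4820 CPM for the 23 listed glial genes. The part of fibroblasts in these sums was not tested.

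The same held across the matrix families. All 28 collagen genes of either table were listed for EGCs, 17 for EGCs only, and the 11 others were all far higher in EGCs (median log2 difference 6.75). The basement membrane collagens Col4a1 (619 against 2.5) and Col4a2 (257 against 1.41) stood beside the fibrillar Col5a2 (732 against 5.44) and the network-forming Col8a1 (557 against 2.03). All 8 laminin genes were listed for EGCs as well, with Lamb1 at 312 against 2.51. The basement membrane linker Nid1 had 483 against 1.58. Enzymes that finish collagen followed, the cross-linking lysyl oxidase Lox with 1688 against 11.2 and the lysyl hydroxylase Plod2 with 375 against 1.16. Aebp1, a collagen-binding secreted protein, averaged 844 against 5.64, and Mgp, an inhibitor of calcification, 498 against 2.84. BMDMs held other remodelling enzymes. The elastase Mmp12 (881), Mmp9 (182) and the sheddase Adam8 (503) were listed for BMDMs only and Mmp13 was far higher there (37.8 against 1.37), whereas Adamts5 (623), Mmp2 (344) and Mmp3 (308) were listed for EGCs only. The inhibitors Timp1 (517 against 4.5) and Timp3 (330.4 against 3.78) were far higher in EGCs.

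The remaining genes with the largest EGC excess had mixed roles. Ctla2a, a cysteine protease inhibitor, averaged 2454 against 1.76, and Ly6a, a surface protein of stem and stromal cells, 502 against 1.57. Cpe, a peptide-processing carboxypeptidase, had 769.8 against 3.76, and Map1b, a microtubule protein of growing neurites, 426 against 2.06. Among genes listed for EGCs only, the protease inhibitors Serping1 (1307) and Serpina3n (1174), the membrane protein Itm2a (801), the matrix protein Fbln2 (701) and the lipocalin Apod (701) were among the 10 highest. Neuronal genes were present at lower levels. Of 17 enteric neuron genes, 13 were listed for EGCs only, and the 2 in both tables, Uchl1 (132 against 2.17) and Elavl4 (89 against 5.93), were far higher in EGCs. Tubb3, a neuronal tubulin, averaged 126 and Nos1, the enzyme of nitrergic neurons, 101. All 10 smooth muscle and pericyte genes were listed for EGCs, led by Acta2 at 149 against 16.4, and Tagln was far higher there as well (42 against 2.37). Of 8 endothelial genes, 4 were listed for EGCs only, led by the VEGF receptor Flt1, whose level is given below with the growth factor receptors. Flt1 made up most of the list's EGC sum of 193 CPM. The junction protein Pecam1 averaged 9.88 in EGCs and 1.57 in BMDMs. The 5 listed epithelial and mesothelial genes lay between 2.11 (Krt18) and 12.6 (Wt1) in EGCs. Of 3 genes of interstitial cells of Cajal, Kit and Ano1 were listed for neither culture. The third, Etv1, averaged 55.1 in EGCs and 8.61 in BMDMs, short of the limit (log2 difference 2.55).

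Genes of other marrow lineages had few entries for BMDMs. Of 10 neutrophil and progenitor genes, S100a8 (34.2 against 2.15 in EGCs) was far higher in BMDMs and S100a9 (33.2) and Ltf (2.5) were listed for BMDMs only, while Elane, Mpo and Ly6g were listed for neither. Of 8 lymphocyte genes only Cd4 had an entry, at 4.47, and of 7 dendritic and mast cell genes only Itgax (39.2), which macrophages also carry, and Zbtb46 (1.88 against 2.95 in EGCs). The remaining leading BMDM genes were the C-type lectin Clec7a, which binds fungal glucans (524 against 1.2), properdin (Cfp, 453 against 1.34), the inhibitory receptor Lilrb4a (577 against 2.02) and the pleckstrin gene Plek (333 against 2.27). Bc1, a small RNA best known from neurons, averaged 548 in BMDMs and 2.42 in EGCs.

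**Figure D2:**
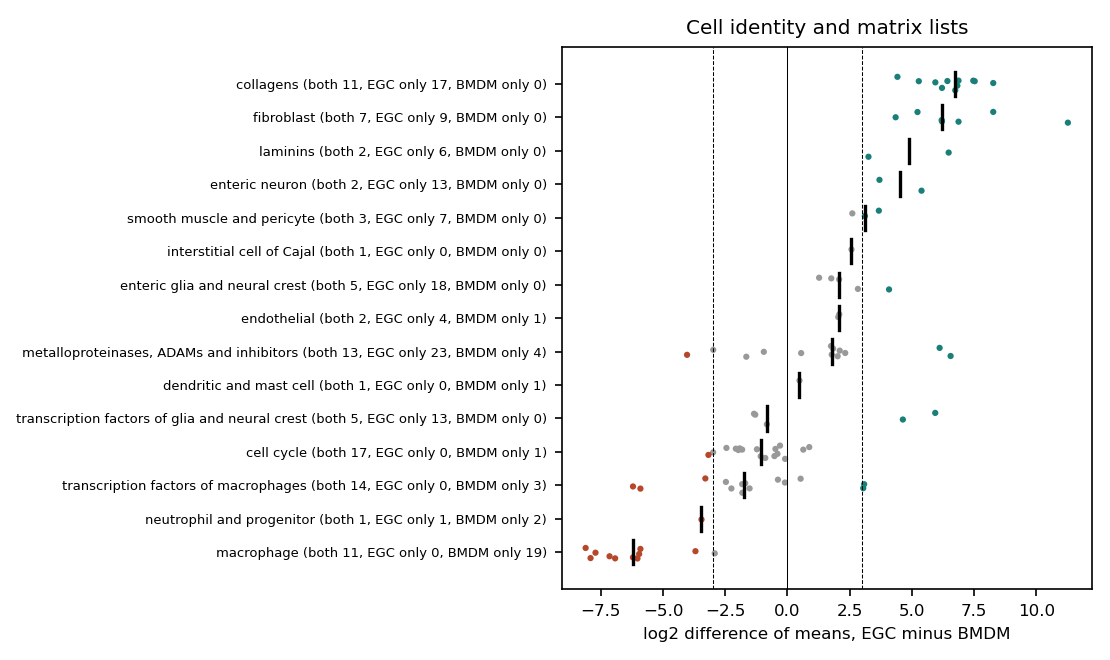
Log2 difference of the authors' means, EGC control minus BMDM RPMI with 1 CPM added to each mean, for members of the cell identity and matrix lists that both tables list. Each point is a gene, coloured where the difference reaches 8-fold (dashed lines), black bars are list medians, and the counts beside each list include genes listed for 1 culture. Macrophage genes lie at the far left (median -6.21) and collagens and fibroblast genes at the far right (medians 6.75 and 6.21).

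Transcription factors of both lineages included members on either side. Of 19 factors of glia and neural crest, 13 were listed for EGCs only, among them Sox10, Sox2 (79.6) and Foxd3 (39). The differentiation inhibitors Id3 (185 against 2.03) and Id1 (44.8 against 0.836) were far higher in EGCs, whereas their relative Id2 leaned to BMDMs (205 against 83.1), as did Etv5 (48.8 against 18.6) and Zeb2 (279 against 157). These were the 5 in both tables, and their median log2 difference was -0.83. Of 19 macrophage factors, 11 of the 14 in both tables were higher in BMDMs (median log2 difference -1.75). Spi1, which encodes PU.1 (251), Ikzf1 (35.7) and Tfec (4.17) were listed for BMDMs only, and Irf8 (211 against 1.87) and Fli1 (57.2 against 4.92) were far higher there. Klf4 (144 against 16.6) and Bhlhe40 (54.5 against 5.54) went the other way and were far higher in EGCs. Runx1 lay close together at 70.8 and 75.9.

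Because PU.1 is the factor that sets macrophage gene programmes, the promoters of the divergent genes were searched for its core motif GAGGAAGT, together with a SOX motif (AACAAAG), an AP-1 motif (TGACTCA), a TEAD motif (GGAATGT), an E-box of TFEB and MITF (TCACGTGA) and the TATA box (TATAAA). Each was sought on both strands in RefSeq promoters (GRCm38.p6, 250 bases before to 50 after each start), which matched 10221 of the 14332 genes, and matches to different motifs may overlap at their ends. The PU.1 core stood in the promoters of 46 of 301 genes that were far higher in BMDMs or listed for BMDMs only at 10 CPM or more (15.3%), against 383 of all 10221 genes (3.75%) and 18 of 821 genes of the corresponding EGC set (2.19%). The other motifs were held by 6.31% (SOX), 9.30% (AP-1), 2.33% (TEAD), 0.997% (E-box) and 17.6% (TATA box) of the BMDM set. In the EGC set the shares were 5.72%, 6.46%, 4.63%, 1.34% and 13.2%, and over all genes 4.60%, 4.72%, 3.34%, 2.21% and 9.0%, in the same order. The motifs were chosen with the expression results known, a match is a description and no site, and the shares were not tested. The 6 genes of the BMDM set with the motif and the highest BMDM means follow as 70 bases of the coding strand read 5′ to 3′ with the PU.1 core or its reverse complement in capitals.
Ctss, chr3:95526753-95526822, plus strand: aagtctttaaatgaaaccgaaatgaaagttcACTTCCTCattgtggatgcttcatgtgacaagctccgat
Pf4, chr5:90772394-90772463, plus strand: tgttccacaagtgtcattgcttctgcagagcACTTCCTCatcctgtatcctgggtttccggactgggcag
Mmp12, chr9:7344278-7344347, plus strand: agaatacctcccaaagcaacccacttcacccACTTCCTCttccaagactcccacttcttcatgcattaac
C1qc, chr4:136893071-136893140, minus strand: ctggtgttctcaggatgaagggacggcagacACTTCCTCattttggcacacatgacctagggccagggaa
Spp1, chr5:104434967-104435036, plus strand: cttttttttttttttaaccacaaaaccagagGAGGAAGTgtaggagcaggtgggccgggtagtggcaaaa
Nceh1, chr3:27182900-27182969, plus strand: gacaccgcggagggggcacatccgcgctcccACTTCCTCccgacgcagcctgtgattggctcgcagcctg
Ctss and C1qc belong to the macrophage list, Pf4 and Spp1 are the chemokine and the matricellular ligand described below, Mmp12 is the elastase above, and Nceh1 is a cholesterol ester hydrolase (356 against 37). In Ctss the motif begins at position -2 from the transcription start and in Pf4 at position -10. In the list of lysosomal genes described below, 4 of 25 promoters held the TFEB and MITF E-box (16%, against 2.21% of all genes), shown here in capitals.
Atp6v1a, chr16:44139353-44139422, minus strand: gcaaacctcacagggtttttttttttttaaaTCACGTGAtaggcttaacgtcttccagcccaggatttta
Ctsa, chr2:164833729-164833798, plus strand: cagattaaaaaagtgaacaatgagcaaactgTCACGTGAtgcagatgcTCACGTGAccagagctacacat
Ctsd, chr7:142387888-142387957, minus strand: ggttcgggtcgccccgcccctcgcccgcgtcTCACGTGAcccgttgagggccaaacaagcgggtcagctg
Mcoln1, chr8:3500442-3500511, plus strand: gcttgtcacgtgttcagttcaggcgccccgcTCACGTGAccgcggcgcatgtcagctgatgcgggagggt
Ctsa held the E-box at 2 places within these bases. Of the genes shown with the E-box, only Ctsd was far higher in BMDMs. Ctsa (784 in BMDMs, 239 in EGCs), Atp6v1a (699 and 326) and Mcoln1 (9.48 and 6.04) fell short of the limit.

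Receptors set the cultures apart by family. Of 33 cytokine receptor genes, 24 were listed for both cultures and 6 were far apart. The haematopoietic receptors Csf1r, Csf2rb (237 against 4.1), Csf2ra (121 against 8.56) and Il2rg, the common gamma chain (62.1 against 0.982), were far higher in BMDMs, and Il1r1 and Il1rap in EGCs. Il10ra (44.1), Il21r (47), Csf3r (20.2) and Il1rl1 (1.4) were listed for BMDMs only, and Osmr, the oncostatin M receptor (67.4), for EGCs only. Its partner chain Il6st, shared by the IL-6 family, averaged 389 in EGCs and 94.3 in BMDMs, and the IL-11 receptor Il11ra1 252 and 71.2. Receptor chains for interferon and tumour necrosis factor differed among themselves. Ifnar2 averaged 227 in EGCs and 228 in BMDMs and Tnfrsf1a 144 and 84.4, while Ifngr1 (236 against 57.3) and Tnfrsf1b (69.7 against 20.6) leaned to BMDMs.

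Chemoattractant and pathogen receptors had more entries for BMDMs alone than for EGCs alone. Of 16 chemoattractant receptors, 9 were listed for BMDMs only. They were led by the complement receptors C3ar1 (946) and C5ar1 (154) and the platelet-activating factor receptor Ptafr (106), and Cxcr4 was far higher in BMDMs (24.8 against 1.29). Ackr3, a scavenging receptor for CXCL12, was listed for EGCs only (102). Ccr2 and Cxcr2 were listed for neither culture. Of 20 pattern recognition genes, 9 were listed for BMDMs only, including Clec4d (409), Tlr13 (72.5) and Tlr7 (43.1), and Cd14 (90.8 against 6.08) and Clec7a were far higher there. Tlr4 (13 in EGCs, 20.3 in BMDMs) and Tlr3 (5.02 and 6.42) were close. Of 22 Fc, scavenger and uptake receptors, 10 were listed for BMDMs only, among them Cd36 (683) and the Fc receptor Fcgr3 (462), and Stab1 was far higher there (183 against 13.7). Against this direction, Olr1, a receptor for oxidized LDL, was far higher in EGCs (31.7 against 1.27).

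Growth factor receptors were the opposite case. Of 40, 18 were listed for EGCs only and none for BMDMs only, and 14 of the 17 in both tables were higher in EGCs (median log2 difference 1.76). Fgfr1 (131 against 3.08), Bmpr1a (82.7 against 2.92) and the activin receptor Acvr1 (40.8 against 2.84) were far higher in EGCs. The EGC-only members included Ngfr, the collagen receptor Ddr2 (229), the VEGF receptor Flt1 (152), both PDGF receptors (Pdgfra 112, Pdgfrb 90.2), Egfr (62.9), and the GDNF receptor chains Gfra1 (75.9) and Ret (20.7). Mertk, which recognizes apoptotic cells through GAS6 and protein S, was the member far higher in BMDMs (143 against 8.45). Its relatives took the other side, with Axl at 252 in EGCs against 33.9 and Tyro3 at 16.8 in EGCs with no BMDM entry. Among receptors for small mediators, Lpar1, for lysophosphatidic acid, was far higher in EGCs (292 against 2.89), and Lpar6 (124 against 6.61) and the UDP receptor P2ry6 (92.8 against 9.28) in BMDMs. The thrombin receptor F2r was listed for EGCs only (104). Of 25 integrin-named genes, the collagen-binding Itga1 was far higher in EGCs (70.2 against 2.45), and the leukocyte chains Itgam (337), Itgb2 (243) and Itgax (39.2) were listed for BMDMs only.

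Ligands divided in both directions. Csf1 (chr3:107741048-107760469), the growth factor of macrophages, was far higher in EGCs, with a mean of 106 against 4.36, and 137 with IL-1b. The second CSF1R ligand, Il34, was listed for EGCs only at 15.5. Of 29 cytokines and colony-stimulating factors, Il33 (92.5), Il6 (5.58) and Tnfsf13b (5.09) were also listed for EGCs only, and Il1rn, the IL-1 receptor antagonist (96), Tnf (17), Il1b (7.5), Il15 (7.37) and Osm (0.53) for BMDMs only. Il1a, Il10, Csf2 and Csf3 were listed for neither untreated culture. Mif averaged 709 in EGCs and 239.8 in BMDMs.

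Of 24 chemokines, Cxcl12, which holds CXCR4-bearing cells in place, was far higher in EGCs (142 against 6.33), as was the monocyte attractant Ccl2 (55 against 3.93). The macrophage chemokines Ccl6 (1890.1 against 15.2), Pf4 (890.4 against 3.99) and Ccl9 (609 against 4.24) were far higher in BMDMs, and so was Cxcl2 (41.3 against 0.239). Ccl5 (141), Ccl4 (38) and Ccl3 (35.9) were listed for BMDMs only, and Cxcl5, a neutrophil attractant, for EGCs only (44.6). In the treated groups Cxcl2 stood at 54.7 in IL-1b-treated EGCs and at 161 and 347 in BMDMs given CM-veh and CM-IL1, so its mean stayed higher in BMDMs.

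Of 57 growth and differentiation factors, 31 were listed for EGCs only and none for BMDMs only. The highest were Vegfd, a lymphatic growth factor (567), pleiotrophin (Ptn, 557), the Wnt agonist Rspo3 (219) and adrenomedullin (Adm, 101), and Bdnf stood at 89.7 and Gdnf at 29.1. Midkine (Mdk, 133 against 1.39), Dkk3 (261 against 4.12), Tgfb2 (103 against 2.92) and Pros1, which encodes protein S (219 against 11.1), were far higher in EGCs. Progranulin (Grn, 1989.8 against 201) and osteopontin (Spp1, 610.3 against 56.3) were far higher in BMDMs. Tgfb1 leaned to BMDMs (58.7 against 11.8), the reverse of Tgfb2. Igf1 did too, at 488 against 118, while its receptor Igf1r stood at 125 in EGCs and 18.1 in BMDMs.

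The complement system was split by component. Of 24 complement and acute phase genes, 7 were far higher in EGCs and 3 in BMDMs, with 9 listed for EGCs only and 3 for BMDMs only. All 3 chains of C1q belonged to BMDMs, with C1qa at 341 against 1.82 and C1qb and C1qc (632) without an EGC entry. The proteases that bind C1q belonged to EGCs, with C1ra at 359.6 against 6.46 and C1s1 at 323, as did their inhibitor Serping1. C3, the central component, averaged 2061 in EGCs and 67.5 in BMDMs, C4b had 127 in EGCs only, and factor B (Cfb) 71.5 against 5.6. The alternative pathway's stabilizer properdin was a BMDM gene. Saa3, an acute phase apolipoprotein, had the sixth highest EGC mean at 5869 and was also abundant in BMDMs (440.4). Lcn2, an iron-siderophore binder, averaged 615 against 5.29. Apoe, a lipid carrier of macrophages and astrocytes, was far higher in BMDMs (11120.5 against 299). Among guidance ligands, 13 of 32 were listed for EGCs only, led by Sema3e (172), and Sema3c was far higher in EGCs (83.2 against 2.72), while Sema4d, a semaphorin of immune cells, was far higher in BMDMs (66.6 against 3.54).

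Ligands and receptors were then set side by side. Of 66 pairs, the ligand was far higher in, or listed only for, EGCs and the receptor so for BMDMs in 8 pairs, and the reverse held in 3. The first group included Csf1 and Il34 with Csf1r, C3 with C3ar1, Cxcl12 with Cxcr4 and Pros1 with Mertk. It also held Cx3cl1 (4.46) with Cx3cr1 (19.9), and Il33 with Il1rl1, which was listed at only 1.4. The reverse comprised Il1b with Il1r1, Osm with Osmr and Sema4d with Plxnb1 (11.1). Il1r1 is the gene targeted in the BMDM donors, so its side cannot be told apart from genotype. Osm was listed at only 0.53 in BMDMs. For 7 pairs both sides lay with EGCs, among them Gdnf with Ret, Fgf2 (97) with Fgfr1 and Ptn with Ptprz1 (22.4), and for 4 pairs both lay with BMDMs, among them Ccl6 and Ccl9 with Ccr1 (12.8). Cd47, the signal that restrains phagocytes, was even (203 in EGCs, 183 in BMDMs), while its receptor Sirpa averaged 709.7 in BMDMs and 77.3 in EGCs. The pairs were picked with earlier results known, are transcript levels in separate cultures, and carry no measure of protein or contact.

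**Figure D3:**
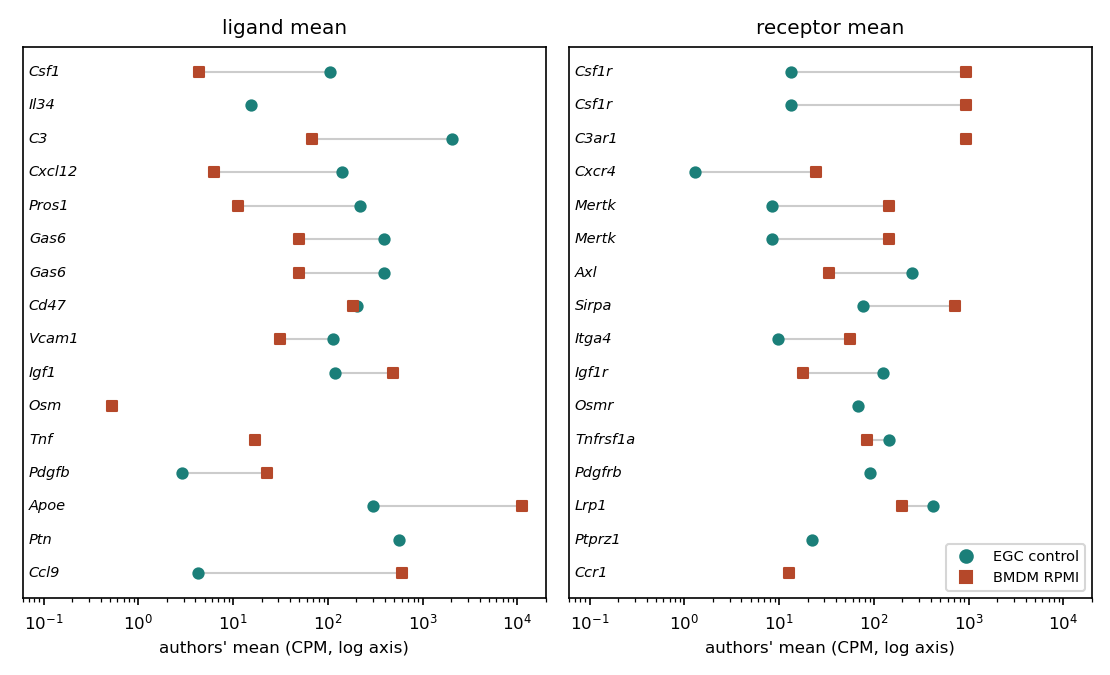
Authors' means (CPM, log axes) of 16 ligands (left) and their receptors (right) in EGC control (circles) and BMDM RPMI (squares); a missing symbol means no entry in that table. Csf1, C3, Cxcl12 and Pros1 lie higher in EGCs and their receptors Csf1r, C3ar1, Cxcr4 and Mertk higher in, or listed only for, BMDMs.

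Of the metabolic lists, the lysosomal one had the median furthest from that of all genes. Of 36 genes of lysosomal proteases and acidification, 5 of the 32 in both tables were far higher in BMDMs and none in EGCs, 27 of 32 were higher in BMDMs, and the median log2 difference was -1.50 against 0.25 over all genes. Psap, the precursor of lipid-degrading saposins, averaged 12319 against 1417, the cathepsin D gene Ctsd 9351 against 887, and the lysosomal glycoprotein Gpnmb 5175 against 376. Atp6v0d2, a proton pump subunit of osteoclasts and macrophages, differed most, with 259 against 1, while the widely used subunit Atp6v0c stood at 1328 against 374. Cathepsins were not uniform. Ctsb leaned to BMDMs (5776 against 1021), Ctsl slightly to EGCs (1114 against 758), and Ctsk, a collagen-degrading protease, was listed for EGCs only (120.1).

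Genes of fatty acid oxidation and lipid storage went both ways. Of 28 in both tables, 16 were higher in BMDMs and 12 in EGCs, with a median log2 difference of -0.39, and 6 more were listed for EGCs only and 1 for BMDMs only. Lpl, which releases fatty acids from lipoproteins, averaged 3774 in BMDMs and 362 in EGCs, the droplet coat Plin2 1616 and 88.2, the fatty acid carrier Fabp5 1882 and 202, and acid lipase (Lipa) 939 and 92.6. These 4 were far higher in BMDMs, and the fatty acid receptor Cd36 was listed for BMDMs only. Desaturation went the other way, with Scd2 far higher in EGCs (199 against 7.44) and Scd1 listed for EGCs only (35.6). In cholesterol metabolism, 19 of 26 genes in both tables were higher in EGCs, none far. The synthesis enzymes Sqle (56.7 against 15.7) and Fdft1 (56.3 against 12.8) were examples. The median log2 difference of the 26 was 0.79, against 0.25 over all genes. Between IL-1b-treated EGCs and CM-veh BMDMs it was 0.21, against 0.11 over all genes. The exporter Abca1 leaned to BMDMs (104 against 24.5), as did its regulator Nr1h3 (26.8 against 4.83).

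In central carbon metabolism few genes were far apart, as among all genes in both tables. Over all genes, 2.94% were far higher in EGCs and 1.33% in BMDMs. Of 26 glycolytic genes in both tables, 21 were higher in EGCs, with a median log2 difference of 0.78 against 0.25 over all genes. Only Ldhb was far apart, higher in EGCs (115 against 7.97). Its partner Ldha stood at 527 and 209.8, Pkm at 476 and 460.1, and Hk3, a hexokinase of myeloid cells, was listed for BMDMs only (15.9), while the neuronal glucose transporter Slc2a3 was listed for EGCs only (10.8). Members of the monocarboxylate transporter family differed. Slc16a1 stood at 101 in EGCs against 12.1 and Slc16a3 at 57.8 against 30.2. Slc16a6 was far higher in BMDMs (163 against 9.73), and Slc16a7 was listed for BMDMs only (9.93). Of 26 tricarboxylic acid cycle genes, the malic enzyme Me1 was the single one far apart (58.6 against 2.66). None of the 86 nuclear oxidative phosphorylation subunits in both tables was far apart, with a median log2 difference of 0.27 that turned to -0.02 after quantile normalization. The mitochondrial ribosomal RNAs leaned to BMDMs (mt-Rnr2 41883 against 13528, mt-Rnr1 9631 against 2974), whereas the messenger mt-Co3 was close (4046 against 3640.3).

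Amino acid and redox genes added several large contrasts. Serine synthesis leaned to EGCs, with Phgdh, its first enzyme, far higher (57.2 against 4.15) and Psat1 at 90.1 against 18.4, and asparagine synthetase (Asns) stood at 125 against 19.9. Glutamine synthetase (Glul), an astrocyte enzyme, leaned to BMDMs instead (209 against 58.1). Of the amino acid transporters, Slc43a2 (417 against 16.6) and the lysosomal Slc15a3 (180.0 against 1.6) were far higher in BMDMs. The phagocyte NADPH oxidase was split from its shared subunit, since Cybb, Ncf1 (244) and Ncf4 (63.2) were listed for BMDMs only and Cyba had 577 in BMDMs and 109 in EGCs. Of 27 redox, glutathione and pentose phosphate genes in both tables, 17 were higher in BMDMs, with a median log2 difference of -0.45. The 4 far apart were all higher in EGCs, the glutathione enzymes Gpx3 (460.1 against 18), Gstm2 (126 against 6.81), Gstp1 (354 against 22.7) and Gstm5 (42 against 4.28). Gpx1 leaned to BMDMs (783 against 234), as did Gstm1 (148 against 107). In arginine metabolism Ass1 was far higher in EGCs (82.3 against 6.89), and Arg1 (6.45) and Acod1, the itaconate enzyme (7.04), were listed for BMDMs only.

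Iron and eicosanoid genes were divided too. The ferritin chains Ftl1 (13688 against 3989) and Fth1 (13417 against 4085) were among the 15 highest genes of both cultures and leaned to BMDMs. The iron exporter Slc40a1 was far higher in BMDMs (54.2 against 5.38) and its oxidase partner ceruloplasmin (Cp) far higher in EGCs (266 against 9.34). In prostaglandin synthesis, Ptges, the inducible prostaglandin E2 synthase, was far higher in EGCs (26.2 against 1.03) and the cyclooxygenase Ptgs2 (9.95) and prostacyclin synthase Ptgis (62.3) were listed for EGCs only. The prostaglandin D2 synthase Hpgds (115 against 1.11) and the phospholipase Pla2g7 (234 against 2.67) were far higher in BMDMs, and Alox5ap (277) and thromboxane synthase Tbxas1 (138) were listed for BMDMs only. The retinaldehyde dehydrogenase Aldh1a1 (72.3) was listed for EGCs only.

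**Figure D4:**
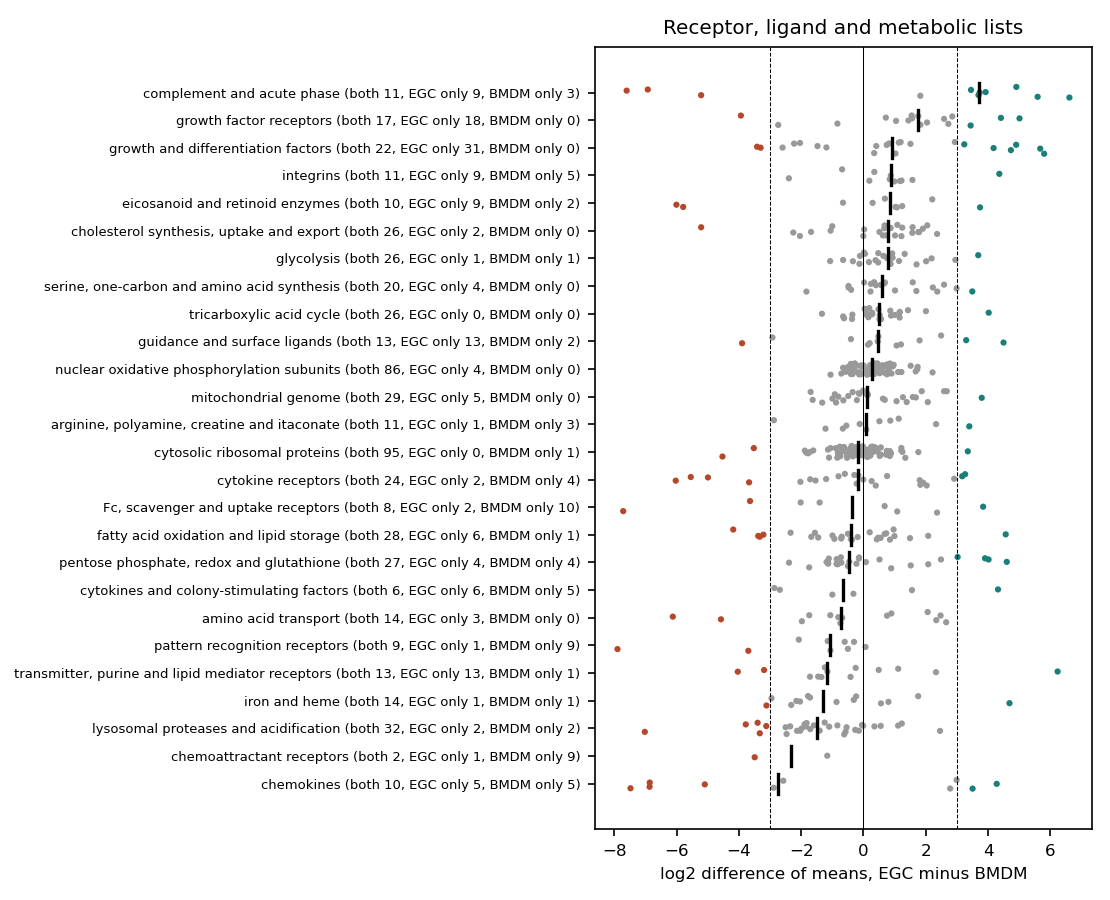
Log2 difference of the authors' means, EGC control minus BMDM RPMI with 1 CPM added to each mean, for members of the receptor, ligand and metabolic lists that both tables list; colours, dashed lines and black bars as for the identity lists. Oxidative phosphorylation subunits lie around 0 (median 0.27), lysosomal genes to the left (median -1.50) and growth factor receptors to the right (median 1.76).

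Several families used different members in each culture. Of the D-type cyclins, Ccnd2 was far higher in EGCs (2039 against 60.8) and Ccnd1 also leaned there (1061 against 290.3), although 15 of 17 proliferation genes in both tables were higher in BMDMs, such as Pcna (172 against 40.2) and Mki67 (28.4 against 2.71). Rac1, a GTPase of the cytoskeleton, was close (328 in EGCs, 284 in BMDMs), while its haematopoietic relative Rac2 was listed for BMDMs only (237). Of their exchange factors, Vav1 was listed for BMDMs only (97.4), Vav3 was far higher there (61.7 against 3.47) and Vav2 was close (18.5 in EGCs, 15 in BMDMs). The actin-severing cofilins diverged, with Cfl2, the muscle-type form, far higher in EGCs (134 against 15.8) and Cfl1 at 556 in BMDMs against 301. Among S100 proteins, S100b and S100a8 with S100a9 marked the opposite ends, and S100a6 averaged 1923 in EGCs and 556 in BMDMs.

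The treated groups gave libraries outside the baseline contrast. Between IL-1b-treated EGCs and CM-veh BMDMs, 277 of the 10320 genes (2.68%) were far higher in EGCs and 169 (1.64%) in BMDMs. Of the 303 baseline genes of EGCs, 235 were far higher again, and of the 137 of BMDMs, 112. These genes were chosen for a baseline difference of at least 8-fold. Keeping their direction was therefore close to fixed in advance and is no independent check. All 137 BMDM genes and 302 of the 303 EGC genes kept it. The exception was Socs3, a feedback inhibitor of cytokine signalling, with means of 70 in control and 3.44 in IL-1b-treated EGCs and of 1.21, 11 and 57 in RPMI, CM-veh and CM-IL1 BMDMs. Root mean squares of log2 differences, taken over the 10320 genes, were 1.36 between the untreated cultures, 0.54 between IL-1b and control EGCs, 0.44 between CM-veh and RPMI and 0.60 between CM-IL1 and RPMI BMDMs. Of the 440 genes far apart at baseline, 2 differed at least 8-fold between control and IL-1b-treated EGCs, 3 between RPMI and CM-veh, and 10 between RPMI and CM-IL1 BMDMs.

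All 10 of the last set except Cxcl2 were EGC genes at baseline. Ctla2a, at 2454 in control EGCs, averaged 1.76 in RPMI, 45.8 in CM-veh and 144 in CM-IL1 BMDMs. Pmepa1, a TGF-beta target that dampens its signalling, had 384 in control EGCs and 8.86, 162 and 283 in the BMDM groups. Inhba, the activin A subunit, had 25 in EGCs and 1.75, 19.2 and 59.3 in BMDMs, so with CM-IL1 it lay above the EGC level. Socs2 did as well, at 51.5 in control EGCs and 3.14, 31.1 and 129 in the BMDM groups. Ccl2 averaged 3.93, 41 and 76.8 in BMDMs against 55 and 96.1 in control and IL-1b-treated EGCs. Other members were Pdpn, Flrt3 and Socs3. Among the cell markers, Sox10 stood at 238 and 214 in the EGC groups, Spi1 at 251, 239 and 212 in the BMDM groups, and Dcn, the most abundant of the far-higher EGC genes after Sparc, at 1.67, 2.18 and 2.77 in BMDMs.

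**Figure D5:**
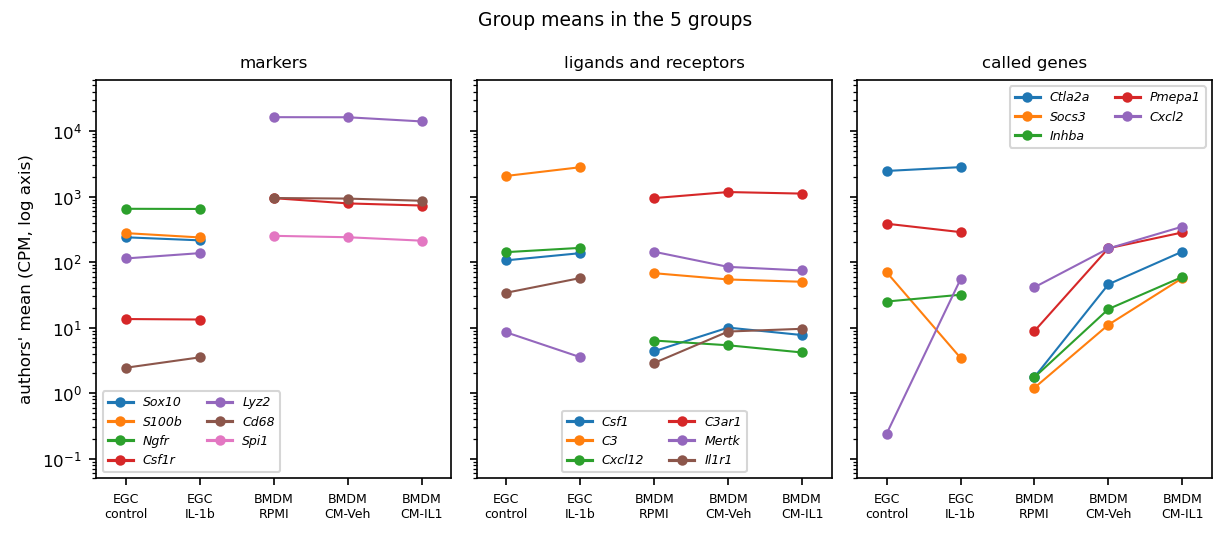
Authors' means (CPM, log axis) in the 5 groups for cell markers (left), ligands and receptors (middle) and genes far apart at baseline whose means differ in treated groups (right), with lines joining groups of the same table. Sox10, S100b and Ngfr have points for EGCs and Spi1 and C3ar1 for BMDMs because the other table does not list them, and Ctla2a, Inhba and Pmepa1 lie higher in BMDMs given conditioned medium.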

How the data were processed

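Libraries were QuantSeq 3′ mRNA libraries, sequenced single-end at 50 bases. According to the submitters' processing notes, cutadapt, STAR and Partek were used on mm10, and no source used here gives versions, normalization or filters. The authors deposited 2 tables, a BMDM and an EGC table, whose group means were used as CPM values. The unit was read from the values, since each deposited column sums to between 996052 and 997403. In control EGCs exactly equal means also occur in 19 pairs of genes from different chromosomes, 11 of them with transcripts that differ in length by more than 2-fold. In RPMI BMDMs there were 7 such pairs, 0 of them with lengths that far apart, so for BMDMs the unit rests on the column sums. The tables' p-values, ratios and folds are the authors' own comparisons within a culture and were not used. There were 0 columns of values per library, so depth, spread and precision are unknown and p-values could not be computed.

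Tables were joined by exact symbol. A pseudocount of 1 CPM was added, and a gene was called far higher at 8-fold. Steps were tested on simulated data. Symbols turned into dates (11 and 7) were left unnamed. Gene positions came from GENCODE vM21 (GRCm38), and promoters from RefSeq. Members, lists, pairs and families were chosen with earlier results of these data known. The text names the labelled markers and Il1r1, the 15 highest means and the 15 largest differences of each culture, the 10 highest genes of each table alone, the 4 most divergent members of each list with a mean of at least 10, members called against the rest, and divergent pairs and paralogs. Other genes named were chosen after their values were seen, predicted genes were left out, and some genes that these rules name are not reported here. Alternatives were pseudocounts, a filter on low means, rescalings, fold limits, older symbols and the treated groups. Python 3.11.15, numpy 2.4.6, pandas 2.3.3 and matplotlib 3.10.9 were used.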

Additional observations from a re-analysis of the deposited data

How the results depend on the processing

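The number of genes far higher in EGCs was 303 and in BMDMs 137, and both moved by over 1.5 times with a pseudocount of 5 (195 and 90) and with fold limits of 4 (685 and 359) and 16 (152 and 58). They stayed within that range with a pseudocount of 0.1 (377 and 170), without AY036118 (319 and 145), after median-centring (262 and 175), after quantile normalization (262 and 171), with a minimum of 10 CPM (303 and 137) and between IL-1b-treated EGCs and CM-veh BMDMs (277 and 169). The EGC share of calls was 68.9%, and 60.0% after median-centring. Genes listed for 1 culture fell from 3132 to 1468 for EGCs and from 880 to 395 for BMDMs when only means of at least 5 CPM were kept, and were 3130 and 878 with older symbols matched. Of 142 called genes among those named or in the lists, 109 stayed past the limit with a pseudocount of 5, 135 after median-centring, 132 after quantile normalization and 113 in the treated groups, where Socs3 reversed (log2 difference 5.01 untreated and -1.44 treated, the cause was not tested) and no other gene of the 142 did. Those short of the limit after median-centring were Acta2, Bhlhe40, Cfl2, Gstm5, Il1r1, Inhba and Klf4. Medians of 3 lists changed sign under a scaling, those of the nuclear oxidative phosphorylation, mitochondrial genome and arginine lists, which stood at 0.27, 0.11 and 0.09 in the means as deposited. No paired analysis was possible because the tables hold group means without replicate numbers, and leaving out each library could not be run for the same reason. Depth limits every low mean to an unknown extent.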

Other observations

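Some far-apart genes have near-identical copies elsewhere in the genome, so that reads may be shared out differently between them. The ribosomal protein gene Rpl35 averaged 253 in BMDMs and 10 in EGCs, and Rpl9 averaged 151 in EGCs and 13.9 in BMDMs, while its copy Rpl9-ps6 had 303 and 348. Both stand out of a list of 95 symbols in both tables whose median log2 difference was -0.18, and their values are uncertain. The only other far-apart symbol of that list, Rps6ka1 (29.2 in BMDMs, 1.63 in EGCs), is a kinase that the name pattern caught.

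Tsix, the antisense partner of Xist, averaged 64 in control and 4.63 in IL-1b-treated EGCs, while Xist averaged 299 and 296. No source used here says whether the counting used strand.

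By rank among the genes listed for both cultures, Dcn stood at percentile 100 in EGCs and 2.5 in BMDMs, and Clec7a at 0.514 and 98.4, so that some of the most abundant transcripts of each culture were among the rarest listed for the other.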
